A study of Mus musculus with 6 samples.

Results

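The cells described here were the endothelial cells of mouse sciatic nerve, the cells that line its blood vessels, in a single-cell RNA-seq series on nerve injury. A cell was taken as a member if its unique molecular identifiers (UMIs, 1 per captured mRNA molecule) for the endothelial genes Pecam1, Cdh5, Egfl7 and Flt1 summed to at least 3 and if it had none of Pdgfra, Sox10, Notch3 and Ptprc, which mark fibroblasts, Schwann cells, mural cells and leukocytes. The rule found 783 members among 11524 cells with at least 1000 UMIs and under 10% mitochondrial UMIs. Partial sciatic nerve ligation (PSNL), a model of neuropathic pain in which part of the nerve is tied off, was set against sham surgery in wild-type C57BL/6J mice, adult and of both sexes. The 5 libraries analysed, 2 of sham and 2 of PSNL nerves taken at month 2 and 1 of PSNL nerves taken at day 5, each came from the pooled pieces of 4 nerves. At month 2 each group had a library in batch 1 and a library in batch 2, and the day 5 library was from batch 2. Before loading, live cells were sorted against myelin, CD45 and Ter119, so leukocytes and red cells were reduced, and no gate on an endothelial protein was used. A sham library at day 5 was not analysed here. P-values rest on the spread between these pooled libraries, part or all of it shared across genes.

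Nerve endothelial cells form the vessels of the endoneurium, which hold a barrier between blood and axons, and the more permeable vessels of the outer sheaths. Along a vessel tree they differ: arterial cells express connexins and Notch pathway genes, capillary cells take up fatty acids through Cd36, Gpihbp1 and Fabp4, and cells of venules carry the selectins and the chemokine-binding receptor Ackr1 through which leukocytes leave the blood. After injury, vessels can proliferate, lay down basement membrane and present adhesion molecules.

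The endothelial label held for most of the members but not for all. A UMI of at least 2 of Cdh5, Egfl7 and Flt1 was found in 586 of the 783 members, here called the core, a subset chosen after its values were seen. The median core cell had 93.0 UMIs per 10000 from 24 other general endothelial genes, among them Tie1, Kdr and Cldn5, and 0.49 per 10000 from 10 fibroblast genes. The other 197 members had medians of 2.36 and 331.5 per 10000, near the 1.24 and 365 of the 10741 remaining cells. By these lists most of them did not carry the endothelial profile. Some did, for example a cell of the sham library of batch 2 at 161 and 0 per 10000. Of these 197 members, 79.2% had Pecam1, 48.2% Cdh5, 10.2% Egfl7 and 4.06% Flt1, and 74 had Pecam1 alone of the 4 genes. In the sham month 2 library of batch 1, 78.0% of the remaining cells had a Pecam1 UMI, against 29.5% to 56.8% in the remaining cells of the other 4 libraries. The core made up 7 of 39 members in that library, 43 of 110 in the sham library of batch 2, 57 of 89 and 77 of 125 in the PSNL month 2 libraries of batches 1 and 2, and 402 of 420 at day 5. At the edge of the rule, 103 members had exactly 3 UMIs of the chosen genes and 277 cells just outside it had 2.

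**Figure D1:**
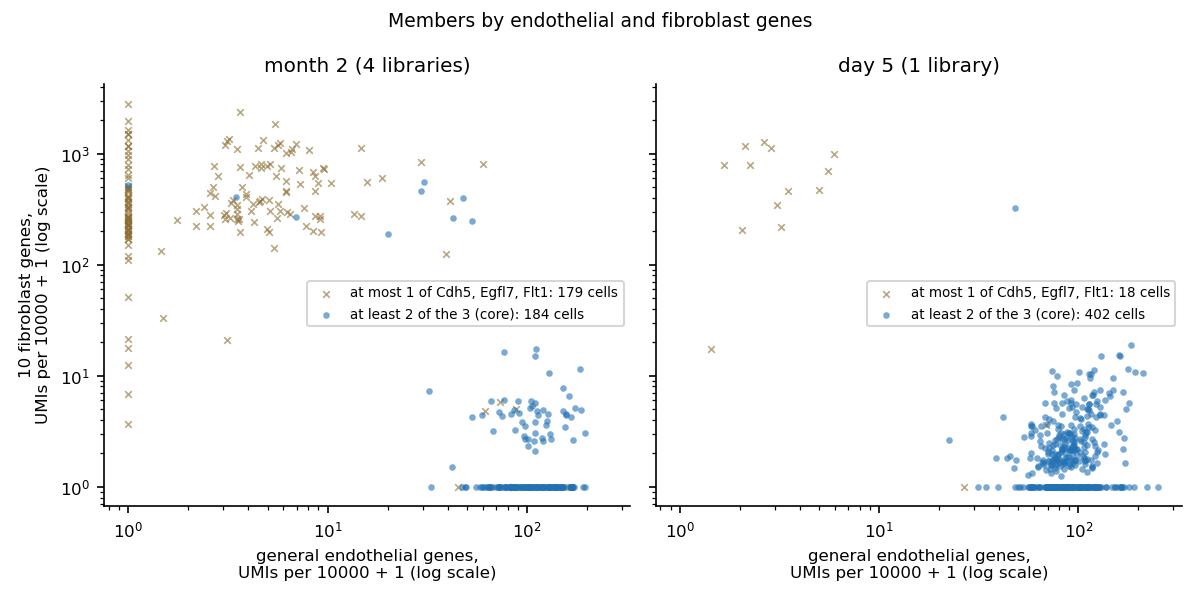
Each point is 1 member, placed by its UMIs per 10000 from 24 general endothelial genes (x axis, plus 1, log scale) and from 10 fibroblast genes (y axis, plus 1, log scale), with the 4 month 2 libraries on the left and the day 5 library on the right. The core (blue circles) lies mostly at high endothelial and low fibroblast levels, and the other 197 members (brown crosses) mostly the other way round.

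Sequencing depth differed between the libraries. The day 5 library was the deepest. At month 2 the median depths of sham and PSNL members overlapped, while the summed core was larger in both PSNL libraries. Members had a median of 5070 and 3673 UMIs in the sham libraries of batches 1 and 2, 2633 and 3927 in the PSNL month 2 libraries, and 11028.5 at day 5. The core summed to 29050 UMIs in the sham library of batch 1 and to 149025, 155832, 339323 and 5032251 UMIs in the others, so that 1 UMI stood for 34.4, 6.71, 6.42, 2.95 and 0.199 CPM (counts scaled to 1000000 per library). In the core the 10 immune genes summed to at most 0.236 UMIs per 10000, and the fibroblast genes to 1.38 and 1.03 in the batch 1 libraries, 25.4 and 22.5 in the month 2 libraries of batch 2, and 1.99 at day 5. Over all members the fibroblast genes stood at 682 and 264 per 10000 in the sham libraries, 257 and 194 in the PSNL month 2 libraries, and 24.5 at day 5. No member shared its cell barcode with a member of another library. The doublet caller Scrublet marked 0.373% of cells, too few to be informative, so doublets were not removed.

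Members took a larger share of the day 5 library than of any month 2 library. They were 7.17% of cells in the sham library of batch 1, where 32 of the 39 lay outside the core (95% Clopper-Pearson interval 5.15 to 9.67, counting error only), 3.24% in the sham library of batch 2 (2.67 to 3.89), 3.82% (3.08 to 4.69) and 3.31% (2.76 to 3.93) in the PSNL month 2 libraries, and 28.3% (26.1 to 30.7) at day 5. The day 5 value was 24.0 percentage points above the mean of the month 2 libraries, and this difference, from 1 library at day 5, was not tested. The core gave 1.29%, 1.27%, 2.45%, 2.04% and 27.1% in the same order. When every cell was first thinned to 1000 UMIs the core gave 1.29%, 0.766%, 1.68%, 1.51% and 14.5%, so the day 5 library remained the highest at equal depth. PSNL and sham at month 2 overlapped by the rule, with a difference of -1.64 points (two-sided exact permutation test, n = 2 libraries per group, p = 1, smallest possible p 0.33). In the core the difference was 0.967 points (exact p = 0.33, the smallest these numbers allow), 1.16 in batch 1 and 0.772 in batch 2, both core shares of PSNL lying above both of sham.

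**Figure D2:**
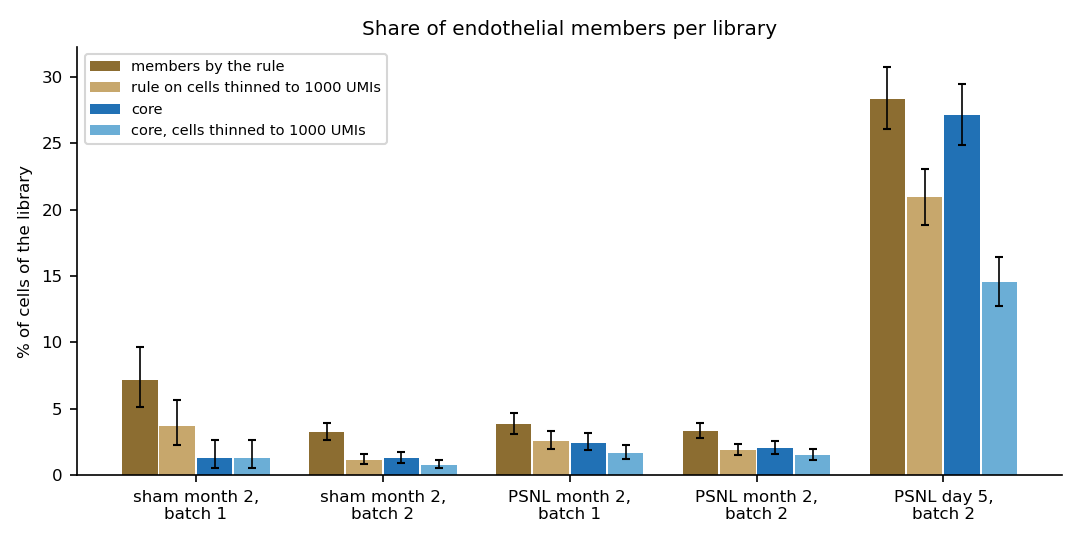
Share of each library's cells (y axis, %) that met the rule or belonged to the core, before and after thinning each cell to 1000 UMIs, with 95% Clopper-Pearson intervals as bars. The day 5 library is highest by all 4 measures, at 28.3% by the rule and 14.5% for the thinned core.

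Against the remaining cells, members stood out by genes of endothelial metabolism, permeability and signalling that the rule had not used. This is a description of chosen cells and carries no test. The leading gene was Fabp4, a fatty acid carrier (median log2 ratio of members to remaining cells over the 5 libraries 5.48, range 3.04 to 6.13). After it came Ctla2a at 5.26, Plvap, which forms the diaphragms of fenestrated and permeable endothelium, at 5.20, the water channel Aqp1 at 5.10 and the fatty acid receptor Cd36 at 5.01. Lower on the same list stood Sox18, a transcription factor of endothelial development, at 4.82, Gpihbp1, which carries lipoprotein lipase to the capillary wall, at 4.59, the phosphatase Ptprb at 4.53 and Kdr, the main VEGF receptor, at 4.30.

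Clustered by themselves, the members split into sub-clusters that differed in vessel genes, in library and in whether they carried the endothelial profile. Of 9 sub-clusters, 6 consisted mostly of core cells. A capillary-like sub-cluster of 111 cells, led by Rbp7, Timp4, Thrsp and Aqp7, had 5 and 23 cells in the sham libraries, 33 and 49 in the PSNL month 2 libraries and 1 cell at day 5. An arterial-like sub-cluster of 61 cells, led by Gja5, Bmx and Sema3g, had 1, 10, 5, 5 and 40 cells in the same order. A venous-like sub-cluster of 175 cells, led by Ackr1, Glycam1, Vwf, Selp and Sele, held 173 day 5 cells, and a sub-cluster of 138 cells led by histone genes, Top2a and Mki67 held 131. All 53 cells of a sub-cluster led by Cxcl9, Ubd and Cd74 were from day 5. A sub-cluster of 56 cells led by Tagln and Apoe stayed unnamed and held 0, 8, 21, 20 and 7 cells. The 3 remaining sub-clusters, the first with Mbp and Pi16 among its leading genes, the second with Sfrp4 and Col1a1 and the third with Sfrp5 and Cldn1, had 2 of 32, 4 of 65 and 6 of 92 cells in the core. In the first, the Schwann cell gene Mbp was found in 37.5% of cells and the fibroblast gene Pi16 in 65.6%, and the fibroblast list stood at 322 UMIs per 10000 and the Schwann cell list at 114. Since day 5 is 1 library and its genes differed from those of month 2, these sizes describe the libraries and were not compared as shares of cell types.

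**Figure D3:**
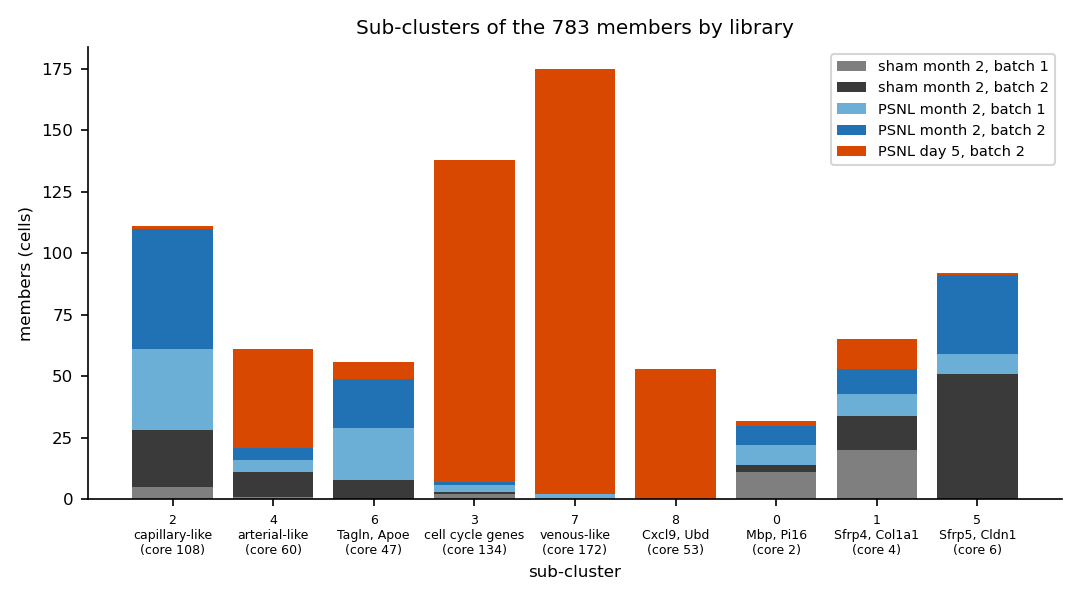
Number of members (y axis, cells) in each of the 9 sub-clusters (x axis, with its name or leading genes and its number of core cells), stacked by library. The capillary-like sub-cluster holds 1 day 5 cell of 111, while 173 of 175 venous-like cells and 131 of 138 cells of the cell cycle sub-cluster are from day 5.

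The next comparison asked how endothelial expression at day 5 after PSNL differed from the mean of the sham and PSNL groups at month 2. At day 5 the endothelial cells carried more RNA of the selectins Selp and Sele, the chemokine Cxcl9, the interferon-inducible Ubd and Gbp2, the angiogenic signals Apln and Angpt2, the collagens Col4a1 and Col18a1 and the cell cycle genes Mki67 and Cdk1. They carried less RNA of Timp4, Rbp7, Cd300lg, Tcf15 and Lpl, genes of capillaries and lipid handling. Expression was summed per library and the day 5 library was set against the mean of the sham and PSNL groups at month 2 with edgeR's quasi-likelihood test and Benjamini-Hochberg adjustment over all genes tested. Over all members 274 of 8999 genes changed (3.04%), 89 higher (0.989%) and 185 lower (2.06%) at day 5. In the core 231 of 5077 changed (4.55%), 119 higher (2.34%) and 112 lower (2.21%). The core p-values matched the normal tail of the log2 fold change over its SE. In effect the core fit used a spread shared across genes, and a gene's own spread between libraries did not enter. The fibroblast gene Dcn was called there, at 34.4, 1194, 38.5 and 1273 CPM in the month 2 libraries and 26.4 at day 5. A small core p-value is therefore no sign of close agreement between libraries. The sets shared 58 genes that were higher, 65.2% of those of all members and 48.7% of those of the core, and 36 that were lower, 19.5% and 32.1%. With batch as a replicate block 906 genes were called over all members and 112 in the core. The block left 1 degree of freedom for the spread, where the fit without it left 2. Genes below that missed the threshold over all members and were called with the block rest on that fit. Without the PSNL month 2 library of batch 2 no gene was called in either set of cells (698 genes over all members and 219 in the core had an unadjusted p under 0.05), so every call below rests on that library too, and the single day 5 library was assumed to vary like those of month 2. Time after injury, depth and the day 5 library itself cannot be told apart, and against the PSNL month 2 group alone 55 genes were called over all members and 186 in the core. Of 61 genes followed one by one and called over all members, 15 were also called against PSNL alone, as were 30 of the 45 that were tested in the core. Of the genes named above, Sele, Gbp2, Angpt2 and Col4a1 were called in neither set of cells against PSNL alone. Selp, Apln, Mki67, Cdk1, Rbp7, Tcf15 and Lpl were called in the core only. Ubd, Cxcl9, Col18a1, Timp4 and Cd300lg were called in both. The 24 general endothelial genes had a median log2 fold change of 1.09 over all members, where 2 of them, Eng and Rasip1, rose, and of -0.12 in the core, where none was called, moving with the larger share of non-core members at month 2, whose part in rises over all members was not tested.

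Selectins and other venular genes were among those that rose at day 5. Of the 12 venous genes tested over all members 4 rose and none fell, with a median log2 fold change of 2.08 against -0.01 over all genes. In the core 6 of 11 rose and none fell, with a median of 1.74 against -0.02. Of these venous genes 10 and 9 could be tested in the month 2 libraries by themselves, and Sele, at 0 in both sham libraries, was not among those 9. Of the leukocyte adhesion and chemokine genes 4 of 18 rose over all members, and in the core 6 of 12 rose and Cxcl12 fell (12 and 8 of the list could be tested in the month 2 libraries by themselves). Selp, Sele and Ackr1 are on this list and on the venous list and are counted in both. Beside the venous and the adhesion counts, 0.989% of all genes rose over all members, and 2.34% rose and 2.21% fell in the core. Selp, P-selectin, on which leukocytes roll, stood in the core at 0 and 20.1 CPM in the sham libraries, 96.3 and 141 CPM in the PSNL month 2 libraries and 625 CPM at day 5. It rose over all members (log2 fold change 4.62 ± 0.54, SE, adjusted p = 0.0097) and in the core (3.80 ± 0.56, adjusted p = 6.41e-09). In cells thinned to 1000 UMIs, Selp was detected in 33.3% of the day 5 core (60.2% unthinned), in 0% to 9.09% of the core of the month 2 libraries and in 1.04% of the remaining day 5 cells (median depths 11028.5 UMIs in the day 5 core and 10921 in the remaining cells). The day 5 library was the highest and the sham libraries the lowest. Sele, E-selectin (chr1:164048234-164057677), read 0, 0, 38.5, 153 and 284 CPM in the core and rose over all members (adjusted p = 0.0136). No fold is given for Sele, since both sham libraries were at 0, and against PSNL alone the log2 difference was 2.17 (adjusted p = 0.225). Ackr1 read 0, 13.4, 135, 103 and 440 CPM and rose by 3.59 ± 0.58 in the core (adjusted p = 1.5e-07) and by 3.14 ± 0.57 over all members (adjusted p = 0.0238). Both were higher at day 5 than in any month 2 library, as 19.6% of genes tested in the core were. Glycam1, a mucin-like ligand of L-selectin, rose by 2.53 ± 0.54 in the core (adjusted p = 0.000241) and by 3.78 ± 0.69 over all members (adjusted p = 0.024). Vcam1, which binds leukocyte integrins, had 1.85 ± 0.47 over all members (adjusted p = 0.0716) and passed the test in the core (1.92 ± 0.54, adjusted p = 0.0126). Over all members Vcam1 was called with the replicate block (2.24 on the log2 scale, adjusted p = 0.000234). Icam1, a further integrin ligand, read 34.4, 0, 51.3, 53.0 and 57.0 CPM in the core, was not tested there, and gave 1.05 ± 0.49 over all members (adjusted p = 0.361).

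Cxcl9 and Ubd, both inducible by interferon, were among the genes that rose over all members. Cxcl9, a chemokine induced by interferon-gamma that attracts T cells (chr5:92321347-92328079), stood at 34.4, 26.8, 77.0, 76.6 and 751 CPM in the core and rose by 5.06 ± 0.45 over all members (adjusted p = 0.00284) and by 4.00 ± 0.54 in the core (adjusted p = 1.24e-10). The day 5 library was the highest. At month 2 both PSNL libraries lay above both sham libraries, in the core and over all members (4.76 and 10.9 CPM in sham, 54.8 and 66.1 in PSNL). That month 2 difference missed the threshold and was called over all members with the replicate block. Within day 5, Cxcl9 was at 4355 CPM in the sub-cluster it leads, at 42.8 in the cell cycle sub-cluster, lower still in the venous-like one, at 3.03 in the arterial-like one, and at 2667 in the 12 day 5 cells of the sub-cluster led by Sfrp4 and Col1a1. Ubd, a ubiquitin-like protein induced by interferon-gamma and tumour necrosis factor (chr17:37193892-37196095), had 0 UMIs in the members of all 4 month 2 libraries and 659 CPM at day 5, where 105 of 402 core cells (26.1%) and 3.67% of the remaining cells carried it. Set against 3 UMIs over the month 2 libraries, Ubd was at least 154-fold higher at day 5 in the core (adjusted p = 2.88e-26) and at least 334-fold over all members (adjusted p = 0.00284), whose month 2 total included the non-core cells. Serpina3g, a protease inhibitor with near-identical neighbours among which reads could be split, was likewise at 0 at month 2 and at 50.5 CPM at day 5, at least 25.5-fold higher (adjusted p = 0.0275).

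Cd74, the invariant chain of MHC class II, was at 0, 6.71, 6.42, 14.7 and 125 CPM in the core and rose by 3.93 ± 0.83 there (adjusted p = 0.000176) and by 4.86 ± 0.64 over all members (adjusted p = 0.0123). Gbp2, an interferon-induced GTPase, was at 0, 60.4, 116, 115 and 278 CPM and rose by 1.90 ± 0.50 in the core (adjusted p = 0.00491) and by 2.13 ± 0.41 over all members (adjusted p = 0.0275). Both were highest in the day 5 library. Of the interferon list 2 of 20 genes, Gbp2 and Iigp1, rose over all members, beside 0.989% of all genes. In the month 2 libraries by themselves 17 of the list could be tested, and 13 in the core, so no median is given. In the core 1 of 18, Gbp2, rose, beside 2.34% of all genes, Rsad2 fell, and Iigp1 missed the threshold (0.76 ± 0.54, adjusted p = 0.741). In the antigen presentation list, Cd74 and H2-Q7 rose among 11 genes over all members and Cd74 alone among 9 in the core, beside 0.989% and 2.34% of all genes. Of that list 7 could be tested in the month 2 libraries by themselves, over all members and in the core alike. Cxcl12, a homing chemokine that arterial and capillary cells make, went the other way in the core, at 3408, 4731, 4178, 3389 and 350 CPM (log2 fold change -3.47 ± 0.77, adjusted p = 0.000445), and missed the threshold over all members (-2.42 ± 0.59, adjusted p = 0.0616; -2.44 and 0.000203 with the replicate block). Cxcl12 was lower at day 5 than in every month 2 library.

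The promoters of 4 of these genes are printed because they hold a binding motif of the factors through which interferon and inflammatory cytokines act. The 250 bases before the RefSeq start of each gene (GRCm38.p6, plus strand) were searched on both strands for the motifs GAAANNGAAA (ISRE), TTCNNNGAA (GAS) and GGGNNTTTCC (NF-kB), which occur in 2.98%, 7.02% and 1.41% of 32851 promoters of that length. Matches are in capitals.
Ubd, chr17:37193642-37193891: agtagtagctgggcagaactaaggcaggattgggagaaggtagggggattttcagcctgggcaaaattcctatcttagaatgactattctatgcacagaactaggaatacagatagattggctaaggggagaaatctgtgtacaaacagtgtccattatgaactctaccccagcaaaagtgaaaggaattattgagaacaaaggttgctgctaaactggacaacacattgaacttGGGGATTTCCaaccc
Serpina3g, chr12:104235897-104236146: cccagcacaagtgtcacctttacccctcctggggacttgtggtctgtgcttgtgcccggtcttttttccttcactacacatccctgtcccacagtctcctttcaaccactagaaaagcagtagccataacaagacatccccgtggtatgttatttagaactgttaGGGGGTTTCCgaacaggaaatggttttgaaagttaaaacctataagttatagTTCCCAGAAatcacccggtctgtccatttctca
Sele, chr1:164047984-164048233: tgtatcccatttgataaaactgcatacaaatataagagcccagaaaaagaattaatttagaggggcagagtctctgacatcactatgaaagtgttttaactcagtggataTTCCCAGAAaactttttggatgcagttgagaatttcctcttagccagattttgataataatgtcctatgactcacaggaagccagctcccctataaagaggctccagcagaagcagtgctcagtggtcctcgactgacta
Gbp2, chr3:142620413-142620662: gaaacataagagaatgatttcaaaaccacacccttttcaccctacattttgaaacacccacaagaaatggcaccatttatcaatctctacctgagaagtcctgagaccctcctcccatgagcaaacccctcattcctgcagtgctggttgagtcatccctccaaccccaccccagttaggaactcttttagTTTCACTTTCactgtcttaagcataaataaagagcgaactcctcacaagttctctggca
Ubd had an NF-kB match that begins 15 bases before the start. Serpina3g had an NF-kB match at 85 and a GAS match at 33 bases before it, Sele a GAS match at 140 and Gbp2 an ISRE match on the reverse strand at 59. No match was found in the same window of Selp or Cxcl9. A match describes the letters of a promoter, and binding was not measured.

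Within the core, most capillary genes were among those that fell at day 5. There 9 of 12 capillary genes fell and none rose, beside 2.21% of all genes that fell, with a median log2 fold change of -2.90. Over all members 2 of 12 fell, Cd300lg and Tcf15, beside 2.06% of all genes, with a median of -1.69. Timp4, a metalloproteinase inhibitor (chr6:115241892-115252205), was at 448, 134, 314, 427 and 1.19 CPM in the core and fell by 6.53 ± 0.76 on the log2 scale over all members (adjusted p = 0.0097) and by 7.80 ± 0.90 in the core (adjusted p = 1.95e-14). At 1000 UMIs per cell Timp4 was found in none of the 402 day 5 core cells (1.49% unthinned) and in 9.30% to 24.7% of the core in the month 2 libraries. Rbp7, a retinol-binding protein of capillaries, was at 516, 1087, 687, 581 and 14.1 CPM in the core. Rbp7 fell by 4.43 ± 0.90 over all members (adjusted p = 0.0317) and by 5.67 ± 0.82 in the core. Cd300lg, a receptor of capillary endothelium, was at 895, 409, 385, 492 and 29.0 CPM in the core. Cd300lg fell by 2.80 ± 0.56 over all members (adjusted p = 0.0293) and by 4.10 ± 0.73 in the core. Tcf15, a transcription factor that with Meox2 drives fatty acid uptake in capillaries, was at 929, 436, 334, 271 and 31.2 CPM in the core. Over all members Tcf15 fell by 2.46 ± 0.54 (adjusted p = 0.0421). In each of these genes the day 5 library lay below all 4 month 2 libraries, as did 16.0% of the genes tested in the core.

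Some genes of lipid uptake fell, and of these Cd36, Fabp4 and Gpihbp1 are also on the capillary list. In the core 5 of 11 lipid genes fell (Cd36, Fabp4, Gpihbp1, Lpl and Lipe) and none rose, beside 2.21% of all genes that fell, with a median of -1.97. Over all members 1 of 16 fell, beside 2.06% of all genes, with a median of -0.77. Cd36 was at 3201, 1040, 2695, 1653 and 213 CPM in the core (log2 fold change -3.23 ± 0.74, adjusted p = 0.000639). Over all members Cd36 missed the threshold (-1.90 ± 0.60, adjusted p = 0.141) and was called with the replicate block (-1.53, adjusted p = 0.0388). Fabp4 was at 22616, 11334, 24783, 16017 and 2981 CPM (core, -2.57 ± 0.79, adjusted p = 0.0283) and gave -1.48 ± 0.56 over all members (adjusted p = 0.232). Lpl, the lipase that frees fatty acids from lipoproteins, was at 241, 127, 89.8, 321 and 5.37 CPM in the core. Lpl fell by 5.96 ± 1.25 over all members (adjusted p = 0.0343) and by 5.06 ± 0.69 in the core. Thrsp, a regulator of fatty acid synthesis, was at 310, 490, 250, 280 and 7.75 CPM and fell by 4.18 ± 0.76 (adjusted p = 0.024). Among the general endothelial genes Kdr, at 757, 651, 558, 613 and 408 CPM, gave -0.61 ± 0.59 in the core (adjusted p = 0.925).

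**Figure D4:**
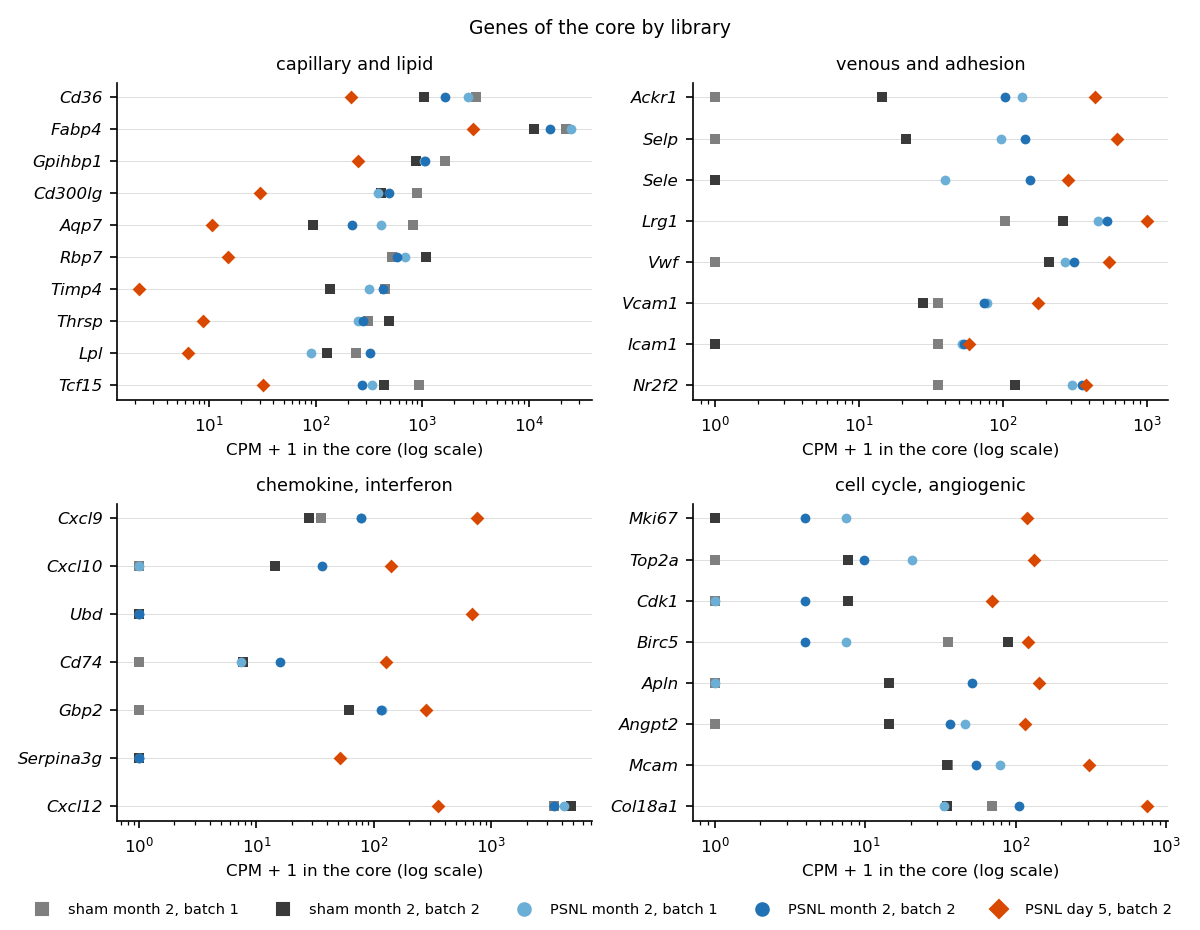
Level in the core in each library (x axis, CPM plus 1, log scale) of genes of the capillary and lipid, venous and adhesion, chemokine and interferon, and cell cycle and angiogenic groups. The day 5 library (orange diamonds) lies left of the 4 month 2 libraries for all 10 capillary and lipid genes shown, for example 1.19 CPM of Timp4, and right of them for Selp, Cxcl9, Ubd and Col18a1.

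Part of the cell cycle genes rose at day 5. In the core 6 of 15 tested passed and over all members 4 of 23, of a list of 24, beside 2.34% and 0.989% of all genes that were higher. In the month 2 libraries by themselves 3 and 6 of the list had enough UMIs to be tested, so most of these genes entered through the day 5 library, where they were high, and no median is given. Mki67, the proliferation antigen Ki-67, was at 0, 0, 6.42, 2.95 and 118 CPM in the core and rose by 3.51 ± 0.65 over all members (adjusted p = 0.0243) and in the core (adjusted p = 1.53e-05), and against PSNL alone the log2 difference was 1.00 (adjusted p = 0.682) over all members and 4.77 (adjusted p = 0.00115) in the core. The 4 month 2 libraries were near or at 0 Mki67 UMIs in the core. Mki67 was found in 20.4% of the day 5 core and in 22.2% of the remaining day 5 cells (5.72% and 5.93% at 1000 UMIs), so the endothelial share lay near that of the other cells of the library. Cdk1, the kinase of mitotic entry, rose by 4.33 ± 1.26 in the core (adjusted p = 0.0167) and by 3.68 ± 0.75 over all members (adjusted p = 0.0317). Birc5, the mitotic protein survivin, rose by 2.75 ± 0.68 in the core (adjusted p = 0.00238) and by 2.51 ± 0.54 over all members (adjusted p = 0.0381). Top2a, a topoisomerase of replicating cells, was at 0, 6.71, 19.3, 8.84 and 132 CPM in the core and passed there (3.95 ± 0.80, adjusted p = 7.86e-05) but not over all members (3.10 ± 1.08, adjusted p = 0.191; 5.16 and 2.2e-10 with the replicate block).

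A minority of the genes of sprouting vessels and of the vessel basement membrane also rose. Of the tip and angiogenic genes 4 of 14 rose over all members and 1 fell, and 3 of 10 rose and 1 fell in the core (9 and 5 of the list could be tested in the month 2 libraries by themselves). Among all genes 0.989% were higher and 2.06% lower over all members, and 2.34% and 2.21% in the core. The peptide ligand Apln was at 0, 13.4, 0, 50.1 and 142 CPM in the core and rose by 2.92 ± 0.66 there (adjusted p = 0.000522) and by 4.12 ± 0.70 over all members (adjusted p = 0.0193). Angpt2, which loosens the contact of endothelial and mural cells through the receptor Tek, was at 0, 13.4, 44.9, 35.4 and 113 CPM and rose by 2.43 ± 0.70 in the core (adjusted p = 0.0138) and by 3.53 ± 0.55 over all members (adjusted p = 0.0149). Mcam, the adhesion molecule CD146, was at 34.4, 33.6, 77.0, 53.0 and 303 CPM and rose by 2.71 ± 0.51 in the core (adjusted p = 1.45e-05) and by 3.54 ± 0.45 over all members (adjusted p = 0.0116). Day 5 was the highest library for these genes. Ednrb, the endothelin B receptor, was at 310, 60.4, 96.3, 112 and 10.5 CPM in the core and fell over all members (-2.80 ± 0.62, adjusted p = 0.0445).

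Of the basement membrane genes 3 of 17 rose over all members and 3 of 15 in the core, beside 0.989% and 2.34% of all genes, and none fell. Their medians were 0.64 and 0.98, against -0.01 and -0.02 over all genes. Col4a1, a chain of type IV collagen, was at 516, 564, 738, 890 and 2824 CPM in the core and rose by 2.11 ± 0.52 there (adjusted p = 0.002) and by 2.52 ± 0.43 over all members (adjusted p = 0.0196). Col18a1, the source of endostatin, was at 68.8, 33.6, 32.1, 103 and 739 CPM and rose by 3.76 ± 0.53 in the core (adjusted p = 5.95e-10) and by 3.26 ± 0.44 over all members (adjusted p = 0.0125). Inside the arterial-like sub-cluster both genes were also highest at day 5 among the libraries given, with no test. The sham library of batch 1 had 1 cell there and is left out, and the other month 2 values rest on few cells. Col4a1 was at 202 CPM in the sham library of batch 2, at 294 and 498 CPM in the PSNL month 2 libraries and at 1873 CPM at day 5 (10, 5, 5 and 40 cells). Col18a1 was at 202, 0, 498 and 1253 CPM in the same order. In the coagulation list Thbd, the anticoagulant thrombomodulin, was at 757, 409, 359, 424 and 99.0 CPM in the core and fell there (-2.18 ± 0.64, adjusted p = 0.0178), with -1.25 ± 0.50 over all members (adjusted p = 0.261).

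Other genes named by the size of their change, each with no UMI in either library of a month 2 group and so given without a fold, differed in how many cells carried them. Chga, the secretory granule protein chromogranin A, was at 0, 20.1, 0, 0 and 171 CPM in the core and rose over all members (adjusted p = 0.0097), with UMIs in 48 of 402 day 5 core cells. Nts, neurotensin, was at 0, 6.71, 0, 0 and 80.5 CPM in the core and rose over all members (adjusted p = 0.0125). Its UMIs were in 24 day 5 core cells, 21.0% of them in 1 cell. Fblim1, an adaptor of cell-matrix adhesions, was at 0 in both sham libraries and at 85.2 CPM at day 5 over all members, rose (adjusted p = 0.0136) and was found in 209 of the 402 cells. Clca3a2 rose over all members (adjusted p = 0.0424) and has a close paralog, Clca3a1, with which reads may be shared. The haemoglobin genes Hba-a1, Hba-a2 and Hbb-bs also passed the test, but 1825 of the 1831 haemoglobin UMIs of the day 5 core were in 1 cell.

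Genes of other cell types were among those that fell furthest over all members. The 12 with the largest falls were Adh1, Cxcl13, Car11, Lgals7, Myoc, C7, Gsn, Wnt10a, Lvrn, Adh7, Gpnmb and Dpep1. Gsn, gelsolin, which fibroblasts express strongly, was at 24667 and 5787 CPM in the members of the sham libraries, 4764 and 2467 in those of the PSNL month 2 libraries and 29.4 at day 5 (-8.10 ± 1.28, adjusted p = 0.015). In the core it was at 0, 671, 32.1, 410 and 15.5 CPM. Of the fibroblast list 5 of 10 genes fell over all members, beside 2.06% of all genes. The list moved with the share of non-core members, which was largest in the sham libraries and smallest at day 5. The part of these cells in the result was not tested. In the core 3 of 8 fell, Dcn among them, beside 2.21% of all genes, and there the fibroblast level moved with batch among the month 2 libraries. In the core Dcn, the fibroblast proteoglycan decorin, was at 1194 and 1273 CPM in the month 2 libraries of batch 2 and at 26.4 to 38.5 CPM in the other 3. Of 134 genes called over all members and tested in the core, 1 had the opposite sign there.

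Of the actin and migration genes 1 of 19 rose over all members, beside 0.989% of all genes. In the core 4 of 19 rose, Marcksl1, Tubb6, S100a11 and Lgals1, beside 2.34% of all genes. In the month 2 libraries by themselves 18 of the list could be tested, and 17 in the core, so no median is given. None of the Notch, Wnt, hypoxia, TGF-beta or ribosome genes tested was called in the core, where 9, 7, 13, 14 and 20 of them were tested. In the month 2 libraries by themselves 6, 4, 8, 11 and 19 could be tested in the core, so no medians are given. Of the barrier and transport genes 2 of 11 fell in the core, Slco1a4 and Itm2a, with a median of -0.90, beside 2.21% of all genes. Itm2a was at 0, 262, 83.4, 130 and 4.97 CPM in the core. Itm2a fell by 3.79 ± 0.58 over all members (adjusted p = 0.0136) and by 4.82 ± 0.68 in the core. Without the sham library of batch 2 its core difference reversed to 0.67. Abcb1a, the efflux pump of barrier endothelium, was at 310, 242, 391, 383 and 97.6 CPM and missed the threshold in the core (-1.69 ± 0.61, adjusted p = 0.0967). Of 27 transcription factors tested in the core 1 was called, Klf4, a flow-responsive factor, which fell (-2.04 ± 0.64, adjusted p = 0.0319), beside 2.21% of all genes there. Over all members 1 of 30 was higher, beside 0.989% of all genes, and this was Meox1, a homeobox factor, which rose (2.16 ± 0.41, adjusted p = 0.0261) but missed the threshold in the core (0.94 ± 0.49, adjusted p = 0.449).

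The study followed a list of pain mediators in nerve stroma, of which none of the 3 that could be tested in the members passed the test. Il6, a cytokine that sensitises sensory neurons, was at 0, 0, 0, 8.84 and 30.4 CPM in the core, where 66 of 402 day 5 cells (16.4%) carried it, against 8.57% of the remaining day 5 cells (1.99% and 1.79% at 1000 UMIs). Over all members Il6 was at 14.3, 2.17, 0, 5.22 and 29.6 CPM (2.54 ± 1.13, adjusted p = 0.334). Ccl2, a monocyte chemokine, had UMIs in the core at day 5 alone (20.1 CPM), in 3.23% of cells against 22.4% of the remaining ones (0.995% and 6.87% at 1000 UMIs). Lif, a cytokine of injured nerve, read 0 to 6.71 CPM in the core. The list holds 6 genes, none of which had enough UMIs to be tested in the month 2 libraries by themselves. Csf3, the granulocyte colony-stimulating factor, was at 0 in the 4 month 2 libraries and at 31.4 CPM in the day 5 core, and missed the threshold over all members (adjusted p = 0.0992).

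The last comparison asked whether endothelial cells of ligated nerves still differed from those of sham nerves at month 2. With edgeR's quasi-likelihood test and Benjamini-Hochberg adjustment no gene passed, either over all members (0 of 6126, 0.0%, with 374 at an unadjusted p under 0.05) or in the core (0 of 3062, 0.0%, with 124), from 2 libraries per group. DESeq2 called 1 gene over all members, H19, an imprinted RNA, at 181, 128, 0 and 5.22 CPM in the sham and PSNL libraries (log2 fold change -5.72, adjusted p = 0.00417), and none in the core. H19 had at most 6.71 CPM in the core. With batch as a replicate block 108 genes passed over all members, 59 higher and 49 lower in PSNL, and none in the core. The 59 included Ptprb, Cd36, Fabp4, Vwf, Selp and Lrg1, and the 49 included the fibroblast genes Dcn, Mfap5, Gsn and Serping1, so both directions moved with the number of core cells among the members, 7 of 39 and 43 of 110 in sham and 57 of 89 and 77 of 125 in PSNL, whose part in the result was not tested. Without the sham library of batch 2, 343 genes passed over all members and 23 in the core, and without that of batch 1, 39 and 12.

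Of 9 venous genes tested in the core, 6 were higher in both PSNL libraries than in both sham libraries and none was lower in both, beside 16.8% of all genes tested there that were higher without overlap, and none of the 6 passed the threshold. General endothelial genes went more often the other way, with 3 of 22 higher and 8 lower, beside 16.8% of all genes that were lower. Leukocyte adhesion and chemokine genes had 4 of 8 higher and 1 lower, and interferon genes 4 of 13 higher and 0 lower. Selp and Ackr1 are counted among the adhesion genes and among the venous genes. Selp was at 0 and 20.1 CPM in sham and at 96.3 and 141 in PSNL (2.84 ± 0.80, adjusted p = 0.999). Ackr1 was at 0 and 13.4 CPM in sham and at 135 and 103 in PSNL (3.33 ± 0.87, adjusted p = 0.999), and Nr2f2, the transcription factor of venous identity, at 34.4 and 121 against 302 and 357 (1.76 ± 0.52, adjusted p = 0.999). The sham core of batch 1 consisted of 7 cells, where 3 UMIs stand for 103 CPM, so that a value of 0 there is not separated from the 96.3 CPM of Selp in the PSNL library of batch 1. Vwf, which carries clotting factor VIII and tethers platelets, was at 0 and 208 CPM in sham and at 270 and 312 in PSNL (0.99 ± 0.62, adjusted p = 0.999). Among the capillary genes that fell in the core at day 5, Btnl9 was higher in both PSNL libraries at month 2 (0 and 73.8 CPM in sham, 244 and 118 in PSNL) and Tcf15 lower in both (929 and 436, 334 and 271), neither passing the threshold, while Cd36 overlapped at 3201 and 1040 CPM in sham and 2695 and 1653 CPM in PSNL (0.15 ± 0.53, adjusted p = 0.999).

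**Figure D5:**
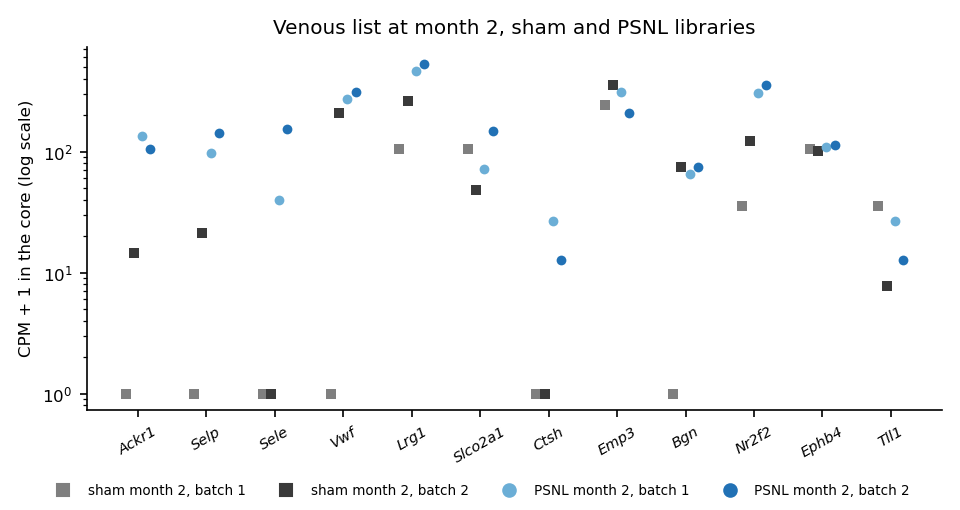
Level in the core (y axis, CPM plus 1, log scale) of the 12 venous genes (x axis) in the 2 sham and 2 PSNL libraries at month 2. PSNL libraries lie above sham libraries for Ackr1 and Selp, from 96.3 to 141 CPM against 0 to 20.1, while the groups overlap for Emp3.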

How the data were processed

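Single-cell libraries (10X 3' v3) from pooled mouse sciatic nerve pieces were used as the raw UMI counts per gene and barcode deposited by the authors, who, by the submitters' processing notes, used kallisto 0.46.2 and bustools 0.40.0 on GRCm38 and Seurat 4.3; the annotation release is not given in the sources used here. Of 6 labelled libraries 5 were analysed. The members and gene lists were chosen with earlier results of these data known, the core after its values were seen. Members' counts were summed per library and tested with edgeR 4.0.16 (R 4.3.3; TMM scaling, default low-count filter, quasi-likelihood, Benjamini-Hochberg threshold 0.05) in 1 fit of 3 groups for day 5 and in the month 2 libraries for PSNL against sham. Genes were named by a rule: for day 5, the 12 largest changes each way among called genes of at least 30 UMIs whose day 5 level lay outside the range of the month 2 libraries; against the remaining cells, the 15 highest median log2 ratios (CPM plus 10); for PSNL against sham, the 5 largest called each way, of which there were none; and genes of the lists. Timp4, Thrsp, Glycam1, H19 and the leading genes of sub-clusters were chosen after their values were seen. CPM are UMIs scaled to 1000000 over the summed cells. Sub-clusters came from scanpy 1.11.5 (2000 variable genes, 15 components, 15 neighbours, Leiden resolution 0.5). Coordinates are from GENCODE on GRCm38, promoters from RefSeq. The month 2 batches pair the libraries by label, and deviations of same-batch libraries correlated at 0.370 over 6126 genes of all members and 0.159 over 3062 of the core. Alternatives were DESeq2 1.42.0, other scalings, filters, depth and doublet settings, a replicate block and leaving out each library. Tests were run on simulated data drawn from 1 pooled profile with the same spread in all libraries. These data had no batch effect and no difference in the share of core cells, so that check does not cover either. Single values of some genes are not reported here.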

Additional observations from a re-analysis of the deposited data

How the results depend on the processing

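Depth limited what the month 2 core could show: in the 7 cells of the sham library of batch 1, 1 UMI stood for 34.4 CPM. For day 5 against month 2 (274 genes over all members, 231 in the core), 152 genes passed with day 5 and month 2 as 2 groups, 55 against PSNL alone, 19 with at least 5 marker UMIs, 843 with no filter on low counts, 906 with the replicate block that pairs libraries by batch and 104 with the rule on thinned cells, and in the core 72 passed with DESeq2 and 112 with the replicate block. For PSNL against sham (0 genes), 1 gene passed with DESeq2, 32 with no filter on low counts and 108 with the replicate block. Leaving out 1 library at a time gave 0 to 955 genes for day 5 over all members and 0 to 463 in the core, and 0 to 343 and 0 to 23 for PSNL against sham. The lowest day 5 counts came without the PSNL month 2 library of batch 2. Without the sham library of batch 1 the day 5 counts were 955 and 399, without that of batch 2, 787 and 463, and without the PSNL library of batch 1, 354 and 44. The cause was not tested. The day 5 share of cells lay above the month 2 mean by 24.2 points with up to 1 UMI of the exclusion genes, 18.6 on thinned cells and 13.2 for the thinned core. The difference in share between PSNL and sham, -1.64 points, reversed to 0.967 in the core, 1.05 in the core with any exclusion gene and 0.566 in the thinned core, all added after seeing the data, and leaving out 1 library gave -3.60 to 0.326. Of 61 named genes called over all members, 58 kept their direction under all alternatives with a value. Hbb-bs gave -0.87 on thinned cells and -0.80 without Scrublet doublets, which removes the 1 haemoglobin-rich cell, and in the core without the sham library of batch 2 Gsn gave 1.74 and Itm2a 0.67. With the replicate block all 61 stayed called and Cxcl10, Cxcl12, Vcam1, Top2a, Cd36, Aqp7, Car4, Btnl9, Vwf and Lrg1 were added; of the 61, 46 stayed called with DESeq2 and none without the PSNL month 2 library of batch 2.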
